A study of Mus musculus with 20 samples.

Results

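The data concern 10 genes of platelets and of megakaryocytes, the large marrow and spleen cells that shed platelets: Ppbp, Pf4, Vwf, Gp5, Gp9, Gp6, Gp1ba, Gp1bb, Itga2b and Treml1. Every probe that the array files name after one of these genes was taken, which gave 12 of the 41174 probes of the array, 3 of them for Vwf. RNA came from spleen natural killer (NK) cells, lymphocytes that kill infected or transformed cells, of 20 male C57BL/6 mice, with 1 single-colour Agilent array per mouse. The mice were dosed by gavage every day for 14 days, and there were 5 mice in each of 4 groups. Control mice received water, another group received ptaquiloside at 5.3 mg/kg, another selenium at 1.3 mg/kg, and the last both compounds at those doses. Ptaquiloside is a carcinogen that bracken fern makes, and selenium is an essential trace element. The NK cells were collected untouched, by holding back other spleen cells on magnetic columns, so platelets and other cells that passed the column would add their RNA to the sample. Of the 14 NK cell markers examined 14 were measured, 12 of them well above background on all 20 arrays, with Il2rb, Gzmb and Gzma, an interleukin receptor chain and cytotoxic granzymes, among the brightest.

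Megakaryocytes make the RNA that platelets carry with them, since platelets have no nucleus. Ppbp and Pf4 encode chemokines stored in platelet alpha granules, and Vwf encodes von Willebrand factor, the adhesive protein that tethers platelets to damaged vessel walls and that endothelial cells make as well. Gp1ba, Gp1bb, Gp9 and Gp5 encode the subunits of the receptor for von Willebrand factor, Gp6 the collagen receptor, Itga2b the alpha subunit of the fibrinogen receptor, and Treml1 a granule receptor that moves to the surface of activated platelets. In such bulk samples fewer platelets or megakaryocytes and less RNA per cell cannot be told apart.

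A level below is the log2 processed signal of a probe minus the 75th percentile of its array, so 0 is that percentile. Levels are compared between arrays for 1 probe. Brightness across probes only served to choose which genes of a list are named, and says nothing of which gene is expressed more. Of the 12 probes, 9 were well above background on all 20 arrays and 2 on 19 arrays, the missing one being the array of ptaquiloside mouse 4. The remaining probe, also for Vwf, was above background on 0 of 20 arrays and was not tested. The array of ptaquiloside mouse 4 was dim, with a 75th percentile of 10.5 scanner units against 45.5 to 133 on the other 19 arrays. Results that it moves, SEs apart, are given with and without it. Each of the 5 slides held the same-numbered mouse of every group, and a group kept one slide position throughout, so treatment and slide position cannot be told apart. SEs below come from the fit of all 20 arrays without the slide as a block. The 4 groups share its spread, so the dim array widens SEs also where its group is not compared. For both compounds against control, leaving it out took the SE of Itga2b from 0.46 to 0.23 and of Gp5 from 0.26 to 0.25. With the slide as a block as well, that of Ppbp went from 0.38 to 0.22.

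Probe sequences are shown for 4 probes, as the array files give them, 5′ to 3′ on mm9. They are the probes flagged at the end for their value on the dim array, and the Vwf probe that stayed below background. The 60 bases of the Itga2b probe are spread over a span of 209 bases of the genome (chr11:102319453-102319661, minus strand). The Gp1bb probe (chr16:18621107-18621166, minus strand) has a GC content of 80.0%. The second Vwf probe (chr6:125635858-125635917, plus strand) lies 81230 bases past the Vwf probe that stayed below background (chr6:125554568-125554627, plus strand), which the array files tie to another sequence record.
Itga2b: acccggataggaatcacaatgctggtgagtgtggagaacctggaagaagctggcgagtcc
Gp1bb: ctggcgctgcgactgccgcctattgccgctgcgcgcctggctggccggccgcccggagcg
Vwf, second probe: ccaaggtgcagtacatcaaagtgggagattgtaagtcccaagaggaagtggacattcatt
Vwf, below background: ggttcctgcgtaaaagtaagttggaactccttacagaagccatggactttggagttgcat

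The stretch just before the start of transcription is shown for 6 of the 10 genes, from base -110 to base -1, with sequences from RefSeq on GRCm38.p6. Whether its letters bear on the levels on the arrays was not tested. Promoter windows of 300 bases, from 250 before to 50 after the start, were matched by symbol for 9 of the 10 genes. Capitals mark GATAA or its reverse complement TTATC, the core letters bound by GATA1, and GGAAGT or its reverse complement ACTTCC, letters bound by ETS factors such as FLI1. Both factors are known for driving megakaryocyte genes.
Ppbp (chr5:90768408-90768517, plus strand): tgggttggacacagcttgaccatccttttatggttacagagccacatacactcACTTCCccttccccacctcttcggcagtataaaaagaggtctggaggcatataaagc
Pf4 (chr5:90772325-90772434, plus strand): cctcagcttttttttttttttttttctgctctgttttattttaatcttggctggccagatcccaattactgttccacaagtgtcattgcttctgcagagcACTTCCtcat
Gp5 (chr16:30310782-30310891, minus strand): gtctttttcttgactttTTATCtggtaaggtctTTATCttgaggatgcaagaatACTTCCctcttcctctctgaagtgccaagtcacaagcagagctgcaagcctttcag
Gp9 (chr6:87777960-87778069, plus strand): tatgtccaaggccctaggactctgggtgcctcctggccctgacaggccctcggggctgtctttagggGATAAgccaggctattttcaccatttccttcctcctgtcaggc
Gp1ba (chr11:70639012-70639121, plus strand): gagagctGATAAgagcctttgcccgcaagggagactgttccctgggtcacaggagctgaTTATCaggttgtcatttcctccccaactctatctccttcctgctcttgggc
Itga2b (chr11:102469884-102469993, minus strand): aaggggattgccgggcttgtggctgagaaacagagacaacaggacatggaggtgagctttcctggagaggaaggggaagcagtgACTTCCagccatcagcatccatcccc
In the whole 300-base windows, GATAA on either strand was found in 5 of the 9 genes (Pf4, Gp5, Gp9, Gp6 and Gp1ba) and in 25.4% of all 32851 windows in the table. GGAAGT on either strand was found in 6 of the 9 (Ppbp, Pf4, Gp5, Gp9, Gp6 and Itga2b) and in 23.8% of all windows. The motifs share no bases in these windows, and a match is a match of letters only.

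Across the 4 groups, mice given both compounds had the lowest mean level of all 10 genes when the dim array was left out, and of 9 genes with it, Itga2b then being lowest with ptaquiloside alone. Selenium alone had the highest mean for 8 genes and ptaquiloside alone for the other 2, which were Ppbp and Gp9 without the dim array and Gp6 and Gp1bb with it. The spread between mice of a group was wide, and limma called 0 of the 25028 probes (0%) in each of the 5 comparisons of 2 groups, for the interaction and when all 4 groups were tested at once. For the 11 tested probes of the platelet genes that joint test gave an adjusted p of 0.999989, and 0 of 11 had an unadjusted p under 0.05, against 1.02% of all probes. With the slide as a block and without the dim array, the second Vwf probe alone had one (0.0452). This compares with 3.78% of all probes, and the adjusted p of that probe from limma was 0.997938. The comparisons below therefore give sizes and directions of differences, none of which passed the test.

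**Figure D1:**
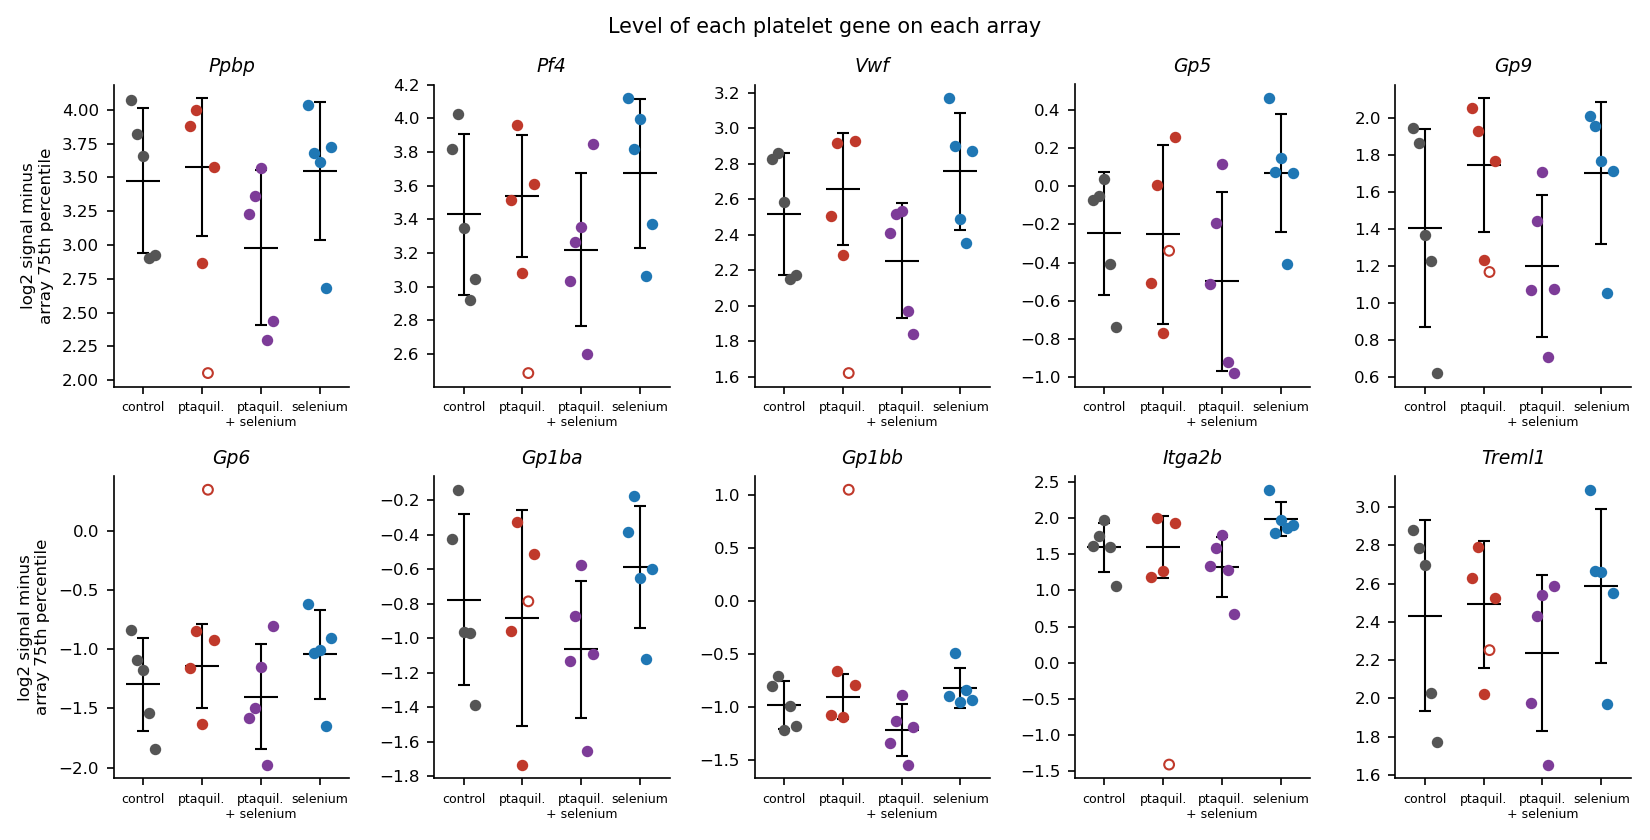
Level of each of the 10 genes (log2 processed signal minus the 75th percentile of the array, each panel on its own axis) on the 20 arrays, 1 point per mouse in the order of mouse 1 to 5 within each group. Bars give mean ± SD without the open circle, the dim array of ptaquiloside mouse 4, and within every panel the mean of mice given both compounds is the lowest, for Ppbp at 2.98 against 3.48 in control.

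Among the granule chemokines, Ppbp (probe A_51_P428372, chr5:91198970-91199029, plus strand) stood at 4.07, 3.82, 3.66, 2.90 and 2.92 in control mice 1 to 5. In mice 1 to 5 given both compounds it stood at 3.23, 3.36, 3.57, 2.30 and 2.44. Every mouse given both compounds was below the control mouse on the same slide, although the groups overlapped, because mice 4 and 5 were low in both. Selenium gave 4.04, 3.68, 3.61, 2.68 and 3.72, and ptaquiloside 3.88, 4.00, 2.86, 2.05 and 3.57, the 2.05 being the dim array. Group means were 3.48 ± 0.53 (SD, n = 5) in control, 2.98 ± 0.57 (SD, n = 5) with both compounds, 3.55 ± 0.51 (SD, n = 5) with selenium, and 3.58 ± 0.51 (SD, n = 4) with ptaquiloside without mouse 4 or 3.27 ± 0.81 (SD, n = 5) with it. With both compounds Ppbp was 0.71 times its level in control, a log2 difference of -0.50 ± 0.38 (SE), the largest of the 10 genes in that comparison, and 0.67 times its level with selenium (-0.57 ± 0.38, SE).

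Pf4 (A_51_P441426, chr5:91202275-91202334, plus strand) lies beside Ppbp, with 3245 bases between the probes. Control mice 1 to 5 had levels of 3.82, 4.02, 3.35, 2.92 and 3.05, and mice given both compounds 3.03, 3.26, 3.36, 2.60 and 3.85. The last of these, mouse 5, was the highest of its group and above both the control mouse (by 0.80) and the selenium mouse (by 0.48) of its slide, in contrast to Ppbp. Selenium gave 4.12, 3.82, 4.00, 3.06 and 3.37, and ptaquiloside 3.51, 3.96, 3.08, 2.49 and 3.61, again lowest on the dim array. The difference between both compounds and control was -0.21 ± 0.31 (SE), and that between both compounds and selenium was -0.45 ± 0.31 (SE).

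Von Willebrand factor was read by a first probe near the end of the gene (A_51_P103397, chr6:125636551-125636610, plus strand) and by the second one printed above (A_51_P103406), 633 bases before it. The first probe gave 2.82, 2.86, 2.58, 2.15 and 2.17 in control mice 1 to 5 and 2.41, 2.52, 2.53, 1.97 and 1.84 with both compounds. Levels were 3.17, 2.90, 2.49, 2.35 and 2.87 with selenium and 2.50, 2.92, 2.29, 1.62 and 2.93 with ptaquiloside. Mice given both compounds were below the control mouse on 5 of 5 slides and below the selenium mouse on 4 of 5, and all groups overlapped. The second probe ranged from 0.32 to 1.22 in control, from -0.17 to 0.98 with both compounds, from 0.58 to 1.47 with selenium and from 0.58 to 1.27 with ptaquiloside without mouse 4, which read -2.57. It followed the first closely, with a Pearson correlation of 0.96 between the probes over 19 arrays. The first probe differed by -0.26 ± 0.26 (SE) from control and by -0.50 ± 0.26 (SE) from selenium, and the second by -0.31 ± 0.52 (SE) and -0.57 ± 0.52 (SE). The wide errors of the second probe come with the dim array, where it was not well above background. The probe below background stayed between -6.98 and -3.26 on the 20 arrays, below background on all of them.

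The 4 subunits of the von Willebrand factor receptor went the same way by their means. Gp5 (A_51_P439996, chr16:30308347-30308406, minus strand) stood at -0.07, -0.05, 0.04, -0.41 and -0.74 in control and at -0.51, -0.19, 0.11, -0.92 and -0.98 with both compounds, mice 1 to 5. With selenium it stood at 0.46, 0.08, 0.14, -0.41 and 0.07, above the same-numbered control mouse on 5 of 5 slides, and with ptaquiloside at -0.51, 0.01, -0.77, -0.34 and 0.26. The means were -0.25 ± 0.32 (SD, n = 5) in control, -0.50 ± 0.47 (SD, n = 5) with both compounds, 0.07 ± 0.31 (SD, n = 5) with selenium and -0.27 ± 0.41 (SD, n = 5) with ptaquiloside, or -0.25 ± 0.47 (SD, n = 4) without mouse 4, and all groups overlapped. Gp5 was 0.68 times as high with both compounds as with selenium (-0.57 ± 0.26, SE, lower on 5 of 5 slides), which gave the smallest unadjusted p of the 11 probes in that comparison, 0.0394, and an adjusted p of 0.999935 from limma. Against control the difference was -0.25 ± 0.26 (SE).

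Gp9 (A_51_P153995, chr6:87729650-87729709, plus strand) had levels of 1.95, 1.86, 1.36, 1.23 and 0.62 in control and 1.07, 1.44, 1.71, 0.70 and 1.07 with both compounds. Its selenium values of 2.01, 1.96, 1.77, 1.05 and 1.71 were above those with both compounds on each slide, by 0.06 on slide 3 and 0.94 on slide 1. Ptaquiloside gave 2.05, 1.93, 1.23, 1.17 and 1.77. Control mouse 5 was the lowest of all 20 arrays for Gp9, so both compounds were above control there while below it on slides 1, 2 and 4. The differences were -0.21 ± 0.28 (SE) from control and -0.50 ± 0.28 (SE) from selenium.

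Gp1ba (A_51_P346243, chr11:70455415-70455474, plus strand), the subunit that binds von Willebrand factor, ranged from -1.39 to -0.14 in control and from -1.65 to -0.58 with both compounds. It ranged from -1.12 to -0.17 with selenium and from -1.73 to -0.33 with ptaquiloside. The mean was lower by 0.29 ± 0.29 (SE) than in control and by 0.48 ± 0.29 (SE) than with selenium, in 3 and 4 of 5 slides. Gp1bb, whose probe is printed above, was between -1.22 and -0.71 in control, between -1.54 and -0.89 with both compounds and between -0.96 and -0.50 with selenium. With ptaquiloside it was between -1.09 and -0.66 without mouse 4, which read 1.05. Its differences were -0.24 ± 0.31 (SE) from control and -0.40 ± 0.31 (SE) from selenium, and without the dim array the unadjusted p of the second went from 0.217 to 0.0199, the adjusted p of limma being 0.999935 with it.

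Itga2b was the only platelet gene with groups that did not overlap, and only for both compounds against selenium. Its levels were 2.39, 1.79, 1.97, 1.87 and 1.90 with selenium and 1.34, 1.58, 1.77, 1.28 and 0.67 with both compounds, so the lowest selenium mouse was just above the highest mouse given both. Control mice had 1.61, 1.75, 1.97, 1.59 and 1.06 and ptaquiloside mice 1.19, 2.00, 1.27, -1.41 and 1.93, the -1.41 being the dim array, where the probe was not above background. The means were 1.98 ± 0.24 (SD, n = 5) with selenium, 1.33 ± 0.42 (SD, n = 5) with both compounds, 1.60 ± 0.34 (SD, n = 5) in control and 1.00 ± 1.39 (SD, n = 5) with ptaquiloside, or 1.60 ± 0.43 (SD, n = 4) without mouse 4. The difference of both compounds from selenium was -0.66 ± 0.46 (SE), 0.63 times the level, with an unadjusted p of 0.167, and of 0.00926 when the dim array was left out. Against control both compounds were lower on 5 of 5 slides, by -0.27 ± 0.46 (SE). Groups that do not overlap were found for 0.181% of all probes in the comparison with selenium.

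The collagen receptor Gp6 (A_51_P343189, chr7:4320355-4320414, minus strand) differed least from control, by -0.10 ± 0.32 (SE), and by -0.36 ± 0.32 (SE) from selenium. Its levels were -0.84, -1.09, -1.17, -1.54 and -1.84 in control and -1.58, -1.50, -1.15, -1.97 and -0.81 with both compounds, so mouse 5 was the lowest of the first group and the highest of the second. Gp6 ranged from -1.65 to -0.62 with selenium and from -1.63 to 0.34 with ptaquiloside, the 0.34 being the dim array. Treml1 (A_51_P279062, chr17:48506365-48506424, plus strand) had the same pattern on slide 5. It stood at 2.88, 2.78, 2.70, 2.03 and 1.77 in control and at 1.98, 2.43, 2.54, 1.65 and 2.59 with both compounds, a difference of -0.19 ± 0.27 (SE), and it differed from selenium by -0.35 ± 0.27 (SE). Treml1 ranged from 1.97 to 3.09 with selenium and from 2.02 to 2.79 with ptaquiloside, and all groups overlapped for both genes. On slide 5 the genes thus parted: Pf4, Gp6 and Treml1 were higher with both compounds than in control by 0.80 to 1.03, and Gp9 and Gp1ba by 0.45 and 0.30. On the same slide Ppbp, both Vwf probes and Itga2b were lower, with differences of -0.60 to -0.33. There the array with both compounds had a 75th percentile of 45.5 scanner units against 107 in control. Unscaled, Pf4 (655 against 880 in control), Gp6 (26.0 against 29.7) and Treml1 (273 against 364) had lower signals with both compounds. So did Gp9 (95.6 against 164) and Gp1ba (21.4 against 40.7). The part of array brightness in these signs was not tested.

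**Figure D2:**
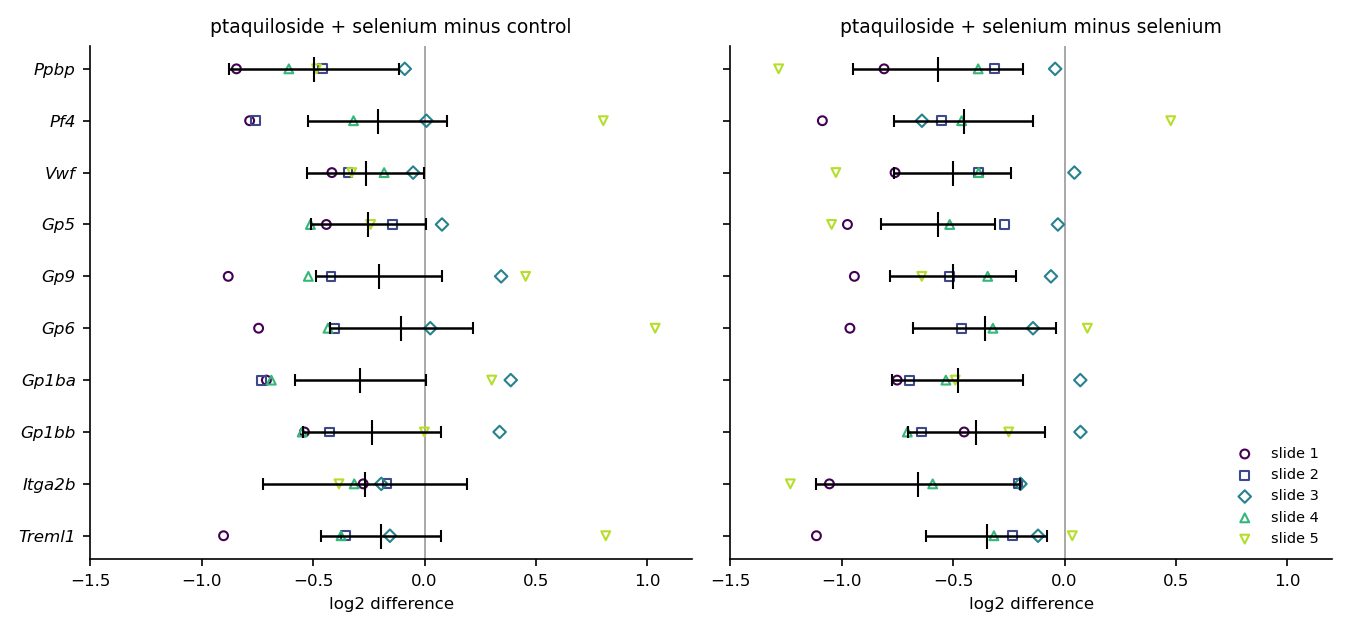
Log2 difference of each gene between mice given both compounds and control (left) or selenium (right), with 1 symbol per slide and a black bar for the difference of group means ± SE from limma. All 10 genes have a mean below 0 in both panels, and on slide 5 Pf4, Gp6, Treml1, Gp9 and Gp1ba lie to the right of 0 against control.

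Set together, both compounds against control gave 11 of 11 probes, and so 10 of 10 genes, with a lower mean, where 47.9% of all probes were lower. The median over the genes was -0.24, against 0.01 over all probes, with a range from -0.50 to -0.10. The adjusted p of limma was 0.999988 for each, and 0 of 11 had an unadjusted p under 0.05, against 0.228% of all probes. There were also 0 with the slide as a block (0.42% of all probes) and 0 without the dim array (0.659%). With the block and without that array Ppbp alone had one (0.0378), against 1.45% of all probes. Both compounds were lower on all 5 slides for 4 of the 11 probes (Ppbp, both for Vwf, and Itga2b), against 2.14% of all probes, and for 0 of 11 were the groups without overlap, against 0.145%. The median over the genes was -0.14 without mouse 4 given both compounds, -0.15 without control mouse 2, -0.37 without control mouse 5 and -0.38 without slide 5. The median over the 10 genes within a slide was -0.73, -0.41, 0.02, -0.47 and 0.15 on slides 1 to 5. The 11 probes are correlated with each other and do not count as 11 separate observations.

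Against selenium, both compounds again gave a lower mean for 11 of 11 probes, where 48.7% of all probes were lower, with a median over the genes of -0.49 and a range from -0.66 to -0.35. At an unadjusted p under 0.05 there was 1 of 11 (Gp5), against 0.631% of all probes. With the slide as a block there were 4 (Ppbp, the first Vwf probe, Gp5 and Gp9), against 1.19%, and without the dim array 5 (both Vwf probes, Gp5, Gp1bb and Itga2b), against 1.77%. With the block and without that array there were 7, against 3.75% of all probes, and the adjusted p of limma was 0.998389 for each of them. On all 5 slides 5 of 11 probes were lower (Ppbp, the second Vwf probe, Gp5, Gp9 and Itga2b), against 2.33%. The within-slide median of the genes was below 0 on each slide, at -0.95, -0.42, -0.05, -0.42 and -0.57 on slides 1 to 5.

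Both comparisons share the mice given both compounds, and selenium against control shares its mice with each of them. In selenium against control 11 of 11 probes had a higher mean, where 50.4% of all probes were lower, with a median over the genes of 0.24 and a range from 0.07 for Ppbp to 0.39 for Itga2b. The median was 0.15 without control mouse 4, 0.11 without control mouse 5, 0.14 without selenium mouse 1 and 0.37 without selenium mouse 4. Gp5 and Itga2b were higher on all 5 slides, as were 4.8% of all probes, and the adjusted p of limma was 0.999998. An unadjusted p under 0.05 was held by 0 of 11 (1.08% of all probes), also with the slide as a block (1.92%), without the dim array (2.73%) and with both changes (5.49%). Much of the size came from slide 5, where the median gene was 0.79 higher with selenium, against -0.03 to 0.21 on slides 1 to 4, and control mouse 5 had the lowest levels of its group for Gp5, Gp9, Gp6, Gp1ba, Itga2b and Treml1.

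Ptaquiloside alone differed from control by a median of -0.05 over the genes, with 7 of 11 probes lower, where 51.9% of all probes were, and by 0.09 without the dim array, with 2 of 11 lower, so the direction turned with that array. The dim array read low for Ppbp, Pf4, both Vwf probes and Itga2b and high for Gp6 (0.34) and Gp1bb (1.05). Of the 11 probes 0 had an unadjusted p under 0.05 (1.68% of all probes), also with the block (2.78%), without the dim array (1.67%) and with both changes (2.61%). Both compounds against ptaquiloside gave a median of -0.22 with 9 of 11 probes lower (48.5% of all probes), and of -0.29 with 11 of 11 lower without the dim array. This median was -0.12 without ptaquiloside mouse 2 or without mouse 4 given both compounds, -0.37 without ptaquiloside mouse 3, -0.35 without mouse 3 given both compounds, and -0.03 with each array centred on its median. Gp1bb had the smallest p there, with -0.70 ± 0.31 (SE), an unadjusted p of 0.0344 (2.61% of all probes) and an adjusted p of 0.825 from limma. With the slide as a block it was again the 1 of 11 (4.32% of all probes). Without the dim array it was -0.31 with an unadjusted p of 0.0711, and there were 0 of 11 (2.95%), or 0 of 11 with the block as well (4.56%).

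The interaction asks whether ptaquiloside had another effect on top of selenium than on top of water. It was below 0 for 11 of 11 probes, where 46.6% of all probes were, with a median over the genes of -0.41 and, without the dim array, -0.56. With all arrays the most negative value was that of Gp1bb, -0.86 ± 0.44 (SE), which was -0.47 without the dim array, where Gp9 was the most negative at -0.84. The adjusted p of limma was between 0.997 and 0.9995, with 0 of 11 unadjusted p under 0.05 (1.36% of all probes). By slides the median of the genes was -0.62, -0.49, 0.42, -0.41 and -1.58, so slide 3 went the other way and slide 5 was the largest. With the block there was 1 of 11 at an unadjusted p under 0.05 (Gp9, 2.27% of all probes), without the dim array 2 (Gp9 and Gp1bb, 2.45%), and with the block and without the dim array 3 (both Vwf probes and Gp9, 4.36%).

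To describe an array by 1 number, the levels of the 10 genes were centred on their mean over the 19 arrays and averaged. This mean was 0.33, 0.34, 0.06, -0.28 and -0.52 in control mice 1 to 5 and -0.32, -0.08, 0.13, -0.73 and -0.33 with both compounds. It was 0.57, 0.35, 0.23, -0.27 and 0.21 with selenium and 0.04, 0.41, -0.42 and 0.27 in ptaquiloside mice 1, 2, 3 and 5. Group means were -0.01 ± 0.38 (SD, n = 5), -0.27 ± 0.32 (SD, n = 5), 0.22 ± 0.31 (SD, n = 5) and 0.07 ± 0.36 (SD, n = 4) in that order, and the arrays of all groups overlapped. Slide means, from -0.42 on slide 4 to 0.26 on slide 2, spanned more than the group means. Summed on the linear scale, the 10 genes came to 29.1 to 55.1 times the 75th percentile in control, 23.5 to 43.1 with both compounds, 31.6 to 63.9 with selenium and 31.1 to 56.8 with ptaquiloside without mouse 4. Array brightness was not the same in all groups, since mouse 5 given both compounds had a 75th percentile of 45.5, below the 75.3 to 128 of the selenium and the 107 to 121 of the control arrays, and its part in the differences was not tested.

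**Figure D3:**
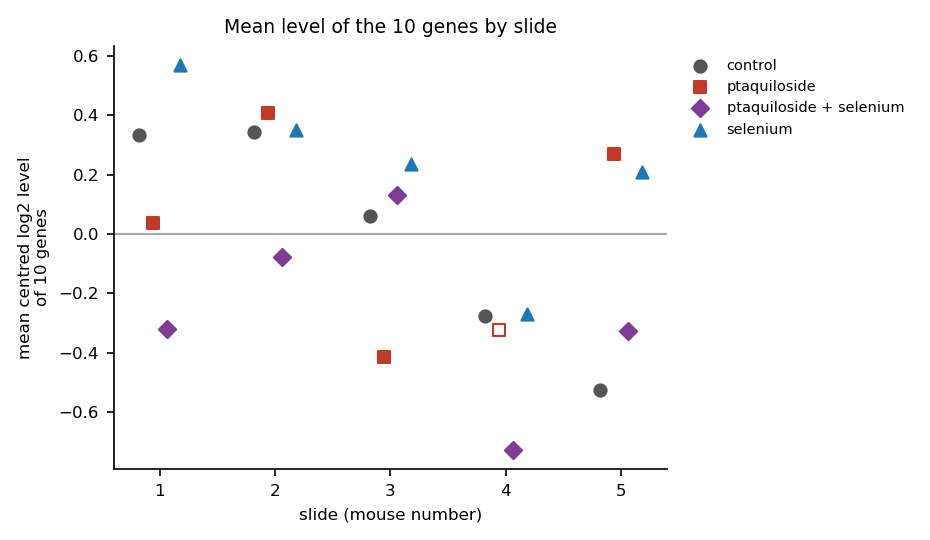
Mean centred log2 level of the 10 genes on each array (vertical) by slide (horizontal), with 1 symbol per group and the dim array of ptaquiloside mouse 4 open. Among the filled symbols, mice given both compounds are the lowest on slides 1, 2 and 4, ptaquiloside is on slide 3 at -0.42, and control is on slide 5 at -0.52.

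The 10 genes kept together across arrays. Over the 45 pairs of genes and 19 arrays, Pearson correlations ran from 0.40 (Pf4 with Itga2b) to 0.94 (Gp6 with Treml1) with a median of 0.77, and with slide means removed from 0.42 to 0.96 with a median of 0.73. Itga2b had the lowest median correlation with the other genes, 0.59, and Treml1 the highest, 0.82. With the dim array included the range widened to -0.62 to 0.92. These arrays share slides, so the values are a description, and no test was made.

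Other genes were ranked by their correlation with the mean of the 10 genes, over 19 arrays and 17325 genes, whose median correlation was -0.02. Of the 10 highest, 9 are given here, led by Myl9 (0.96), a myosin light chain, and Tspan9 (0.95), a tetraspanin of platelets. They were followed by Fhl1 (0.94), Clu (0.93), the chaperone clusterin, Mrvi1 (0.92), a partner of a cGMP-dependent kinase, Alox12 (0.90), the platelet lipoxygenase, Ccdc92 (0.89), Lgalsl (0.89) and Rbpms2 (0.86). After removal of slide means 9 of the 10 were still among the 10 highest, Rbpms2 being replaced by Clec1b, the podoplanin receptor of platelets. A correlation of 0.8 or more was reached by 20 genes, 0.115% of those compared, of which 9 are on the platelet and megakaryocyte lists below and 0 on the lists of other cell types. The 9 genes given here had a lower mean with both compounds than in control, with log2 differences from -0.42 (Alox12) to -0.13 (Rbpms2), and than with selenium, from -0.58 (Alox12) to -0.29 (Lgalsl).

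The lists hold further platelet genes and the markers of cells that a spleen sample can contain. Of the megakaryocyte transcription and growth genes, 12 of 13 were tested, and 0 were called. With both compounds 9 of 12 had a lower mean than in control (median -0.08) and 9 of 12 than with selenium (median -0.20). The brightest were Zfpm1 (-0.12 and -0.34), the partner of GATA1, Lyl1 (0.05 and 0.10), Fli1 (0.12 and -0.07), Gfi1b (-0.02 and -0.48), Nfe2 (-0.08 and -0.47) and Runx1 (-0.09 and -0.17), transcription factors that other blood cells use too. For each gene here the first value is the log2 difference from control and the second that from selenium.

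Of the platelet surface receptors 17 of 20 were tested and 15 had a lower mean with both compounds in each comparison (medians -0.14 and -0.21). The brightest were Cd9 (-0.01 and -0.07), a tetraspanin, Itgb3 (-0.01 and -0.12), the beta subunit that pairs with Itga2b, F2r (0.02 and -0.28), a thrombin receptor, Clec1b (-0.14 and -0.28), Itga6 (-0.25 and -0.33), a laminin receptor chain, and Cd36 (-0.30 and 0.27), a scavenger receptor. Itgb3 thus stood close to control where Itga2b was at -0.27. One receptor of this list had an unadjusted p under 0.05 in each comparison, the ATP-gated channel P2rx1 (-0.81 and -0.91), against 0.228% and 0.631% of all probes, named after its values were seen.

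Granule cargo and enzymes were lower with both compounds for 14 of 16 tested genes in each comparison (medians -0.32 and -0.39). Ccl5 (0.12 and -0.07), a chemokine that NK cells make as well, Thbs1 (-0.32 and 0.52), thrombospondin, F13a1 (-0.20 and 0.24), a clotting factor subunit of macrophages also, Alox12 (-0.42 and -0.58), F5 (-0.59 and -0.40), a clotting factor, and Clu (-0.25 and -0.57) were the brightest. Of the cytoskeleton and signalling genes 13 of 14 were lower than in control and 14 of 14 than with selenium (medians -0.19 and -0.38), with Plek (-0.29 and -0.06), Myl9 (-0.29 and -0.47), Nrgn (-0.02 and -0.36), Fermt3 (-0.25 and -0.47), Prkar2b (-0.12 and -0.40) and Nbeal2 (-0.21 and -0.35) the brightest. In that list 2 of 14 genes had an unadjusted p under 0.05 against selenium (0.631% of all probes), the kinase gene Mylk (-0.29 and -0.56) and the tubulin gene Tuba8 (0.25 and -0.57), named after their values were seen. Over all probes the median difference was 0.01 in both comparisons, and 0 genes of these 4 lists were called.

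**Figure D4:**
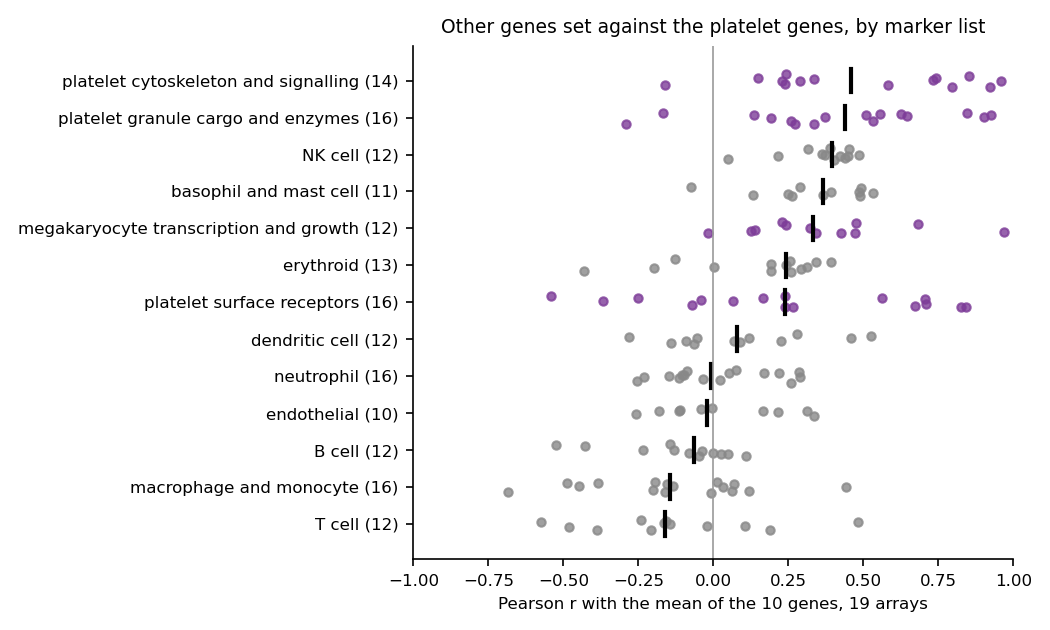
Pearson correlation of listed genes with the mean of the 10 platelet genes over 19 arrays (horizontal), by marker list with the number of genes drawn in brackets, platelet and megakaryocyte lists in purple, black bars at the median. Drawn are 12 of the 14 NK cell, 16 of the 17 receptor and 13 of the 14 erythroid genes tested. Itga2, on both the NK cell and the receptor list, is among those left out. Correlations of 0.8 or more appear in those 4 lists alone, and the medians of the NK cell (0.40) and basophil and mast cell (0.37) lists lie above those of the megakaryocyte (0.33) and surface receptor (0.24) lists.

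With slide means removed, the median correlation of the genes drawn with the mean of the 10 genes was 0.17 for the NK cell list. It was 0.46 for the surface receptors, so the order of these lists turned. At 0.55 the basophil and mast cell list was above all 4 platelet and megakaryocyte lists (0.31 to 0.52).

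Markers of other cells were read in the same comparisons, and 0 of them were called. Basophil and mast cell markers were lower with both compounds for 10 of 11 genes in each comparison (medians -0.39 and -0.54), with Hdc, the histamine-forming enzyme, at -0.37 and -0.42. Of the 11, 1 and 2 had an unadjusted p under 0.05, against 0.228% and 0.631% of all probes: Cd200r3 in both comparisons and Fcer1a against selenium, named after their values were seen. The summed level of that list was 75.5 to 176 times the 75th percentile in control, 81.1 to 126 with both compounds, 88.8 to 202 with selenium and 77.5 to 143 with ptaquiloside without mouse 4. Endothelial markers, listed because endothelium makes von Willebrand factor, were lower for 8 of 10 genes in each comparison (medians -0.07 and -0.29), with sums of 3.58 to 4.22 in control, 3.40 to 4.74 with both compounds, 3.78 to 4.82 with selenium and 3.31 to 4.00 with ptaquiloside without mouse 4. Such sums compare groups within a list and say nothing of the amounts of different cells. Of the 14 endothelial genes listed, Cdh5, Tie1, Emcn and Sox18 did not pass the filter on dim probes. Among those that passed, Pecam1, Flt1, Egfl7, Plvap, Cldn5 and Stab2 were well above background on all 20 arrays. Eng and Kdr were so on 19, Robo4 on 17 and Tek on 5. The median correlation of the 10 tested with the platelet genes was -0.02. Erythroid markers went the other way against control, 11 of 14 being higher (median 0.24), and were lower for 8 of 14 against selenium (median -0.05). NK cell markers had a median of 0.08 against control, with 4 of 14 lower, and of -0.12 against selenium, with 13 of 14 lower. B cell markers were higher with both compounds than with selenium for 12 of 12 genes (median 0.80), a larger shift than that of the platelet genes and of opposite sign, and lower for 8 of 12 against control (median -0.17). Between selenium and control the B cell median was -0.99, 12 of 12 being lower with selenium. T cell markers were higher than with selenium for 11 of 12 genes (median 0.40) and than in control for 8 of 12 (median 0.03). Macrophage and monocyte markers were higher than with selenium for 12 of 16 (median 0.18) and lower than in control for 11 of 16 (median -0.16). Neutrophil markers were lower than with selenium for 12 of 16 (median -0.23) and higher than in control for 11 of 16 (median 0.42). Dendritic cell markers had medians of -0.07 against control and 0.10 against selenium. Against selenium 2 of 12 T cell, 1 of 12 B cell and 1 of 16 neutrophil markers also had an unadjusted p under 0.05. The share of all probes was 0.631%, and against control there were 0 in each of these lists. The part of these cells in the platelet differences was not tested.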

How the data were processed

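NK cells of 20 mice were profiled on Agilent single-colour arrays (Cy3), and the slides were read with Agilent Feature Extraction 9.5.3.1, per the submitters' processing notes. The authors deposited scanner files of intensity values. The processed signal used here is background-subtracted by the authors' scanner software, per the file headers. Deposited columns of unit other are names and flags for control spots, outliers and spots well above background, per the file headers. A deposited table of log2 values from the authors repeats the processed signals unscaled plus a constant. Its control columns are written with decimal commas, and the columns of control 5 and ptaquiloside 5 hold the mean of the other 4, whereas the header names control 1 and ptaquiloside 4 as the mice replaced by a mean, so columns were matched to groups only, and it served as an alternative with no test.

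From the signals, log2 values minus the 75th percentile of the array over non-control spots were computed, outlier spots were left out and spots of a probe averaged. A probe was tested where at least 5 of 20 arrays had it well above background (25028 of 41174, 346 values missing). A gene stands for its brightest probe. Differences were tested with limma 3.58.1 in R 4.3.3, with 1 mean per group over all 20 arrays, two-sided, with Benjamini-Hochberg adjustment over all probes at 0.05. Tested on simulated data for both compounds against control (26569 spots, not averaged to probes), it recovered 18% and 16% of true log2 changes of -1 and 1, and 72% and 64% of those of -2 and 2. The simulated arrays were independent, without a slide effect, and took their spread from all 20 arrays, the dim one included. Samples were grouped by their labels, which give the treatment and a replicate number, read here as the mouse number. The slide equals the mouse number per the file headers. Same-numbered arrays of different groups had a median correlation of 0.40 (27 pairs) in their deviations from group means, against -0.15 for other pairs (108), and the blocked fit is given where it moves a count. Precision is limited by the number of arrays.

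The genes, lists and tests were chosen with earlier results of these data known. The rule for named genes takes all probes of the 10 genes, up to the 6 brightest genes of each list, and the 10 genes with the highest correlation with their mean. Of the last, 1 gene is not reported here. Alternatives were other background correction, scaling, filters, the slide as a block, the dim array or each array left out, the methods' t-test and the deposited table.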

Additional observations from a re-analysis of the deposited data

Results flagged for a closer look

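In 44 sets of 5 arrays, 1 for each tested probe and group, 4 held a value set apart from the others by more than 0.71 of the range of the set, and chance alone marks about 1 in 20 sets. Of these, 3 were on the dim array of ptaquiloside mouse 4: the second Vwf probe at -2.57, Itga2b at -1.41 and Gp1bb at 1.05. The fourth was Gp1bb in selenium mouse 2, at -0.50 against -0.96 to -0.84 in the other selenium mice.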

How the results depend on the processing

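The sign of the median over the 10 genes was kept in all 31 alternatives for both compounds against control (-0.38 to -0.14) and against selenium (-0.61 to -0.33), and for selenium against control (0.11 to 0.37). The number of probes called stayed at 0 in every alternative and comparison but the interaction, where leaving out 1 array gave 0 to 1, the 1 probe coming without mouse 4 given both compounds. For ptaquiloside against control the median had no settled sign. It was 0.0061 with quantile normalization, 0.051 without slide 1, 0.14 in the deposited table, where 1 mouse of each of these groups is replaced by a mean, and -0.16 to 0.11 when 1 array was left out, and positive where control mice 1 and 2 and ptaquiloside mice 3 and 4 were each left out. Against control, Gp6 with both compounds was 0.055 without slide 1 and -0.25 to 0.038 with 1 array left out. For selenium against control, Ppbp was -0.11 without slide 5, -0.083 in the t-test on unscaled values and -0.073 to 0.29 with 1 array left out, and Treml1 was -0.00061 without slide 5 and -0.0098 to 0.31 with 1 array left out. Gp1bb, the probe with the smallest p for ptaquiloside against control, was -0.28 in the t-test on unscaled values. The causes were not tested. Over all member probes and alternatives, no sign changed for both compounds against selenium, 3 of 362 values did against control, and 44 of 362 did for ptaquiloside against control. The slide as a block changed no call at an adjusted p of 0.05, and the counts of unadjusted p it moved stand with each comparison. The adjusted p of the member probes ran from 0.802 to 1 for both compounds against selenium. On the dim array 2 of the 11 tested probes were not above background.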
